A study of Mus musculus with 12 samples.

Results

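The m6A peaks at start codons of mouse heart mRNA were examined in young and aged animals. A peak was counted as a start codon peak when the middle of its exonic sequence lay within 100 nt, along the spliced transcript, of the first base of the start codon. The transcript was the one with the longest coding sequence of the peak's gene in GENCODE M21 (GRCm38). By this rule 1762 of the 41694 peaks of the series (4.23%) were start codon peaks, and they belonged to 915 genes. Of the peaks, 34019 of 6020 genes could be placed on such a transcript. The hearts came from male C57BL/6 mice in both groups, aged 6–7 weeks (young) or 26–27 months (aged). MeRIP-seq sequences RNA fragments pulled down with an antibody to m6A beside the unselected input RNA, and the 12 libraries gave 1 peak list for each of 3 young and 3 aged hearts. The labels give 3 mice per age, whereas the methods speak of hearts mixed before mRNA isolation, so p-values below measure only the spread between these samples. The lists carry no read counts, so the depth behind each peak is unknown and the lack of a peak means only that none was called. Whole hearts hold many cell types, and fewer cells of a type cannot be told apart from less RNA or less m6A per cell.

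m6A is written on mRNA by the METTL3, METTL14 and WTAP complex, removed by FTO and ALKBH5, and bound by YTH domain proteins. Most m6A of mRNA lies in long internal exons and near stop codons, and the 5′ end carries less of it. Methylation upstream of or near the start codon has been studied for its part in translation initiation. Antibodies to m6A also bind m6Am, the methylated adenosine next to the cap, so signal close to the first base of a transcript can stem from either mark.

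The sequences around the start codons of strong and age-separated regions show where these peaks sat. A region is a set of peaks of any hearts that share exonic bases on a strand. The first set is from regions with a start codon peak in all 6 hearts, with the start codon in capitals, given 5′ to 3′ on the transcribed strand from the RefSeq copy of GRCm38. These genes were among those whose weakest peak ranked best.
Actn2, chr13:12340484-12340513, minus strand: gccacccagcgccATGaatcagatagagcc
Lpl, chr8:68880740-68880769, plus strand: ggtgcaccgggagATGgagagcaaagccct
Myl3, chr9:110763732-110763761, plus strand: gattacagctccaATGgcccccaaaaagcc
Actc1, chr2:114052015-114052044, minus strand: aagctgtgccaggATGtgtgacgacgagga

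The second set is from regions whose start codon peaks all held GGAC, the most frequent core of the m6A consensus, with that motif in capitals. Positions are counted from the first base of the start codon to the A of the motif. The motif was at 55 nt in Txlnb, 72 nt in Dcaf11, 10 nt in Nedd4 and -28 nt in Fyco1, and was inside all 6 start codon peaks of each gene.
Txlnb, chr10:17799141-17799170, plus strand: caactcccccaggGGACagctcatcactca
Dcaf11, chr14:55561345-55561374, plus strand: ttgtcccgaagagGGACtggcctgcgtcgt
Nedd4, chr9:72662552-72662581, plus strand: ccagcatgagctcGGACatggcagccgacg
Fyco1, chr9:123843527-123843556, minus strand: tgatagcctgcttGGACctacacatctaag

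The third set is from regions called in each of the 3 aged hearts but in 0 young hearts, again with GGAC in capitals, followed by the start codon of Rcor3, whose region showed the opposite pattern. The motif was at 13 nt in Lnx1, 4 nt in Zgpat, 58 nt in Pdgfd, -79 nt in Cdc42ep3 and -7 nt in Lats2, and was inside each start codon peak of these genes. These are examples with the motif. In other regions of the aged pattern, among them Mrpl46, Numb, Hadhb and Chchd1, no start codon peak held GGAC.
Lnx1, chr5:74685758-74685787, minus strand: atgaaccaaccGGACcttgcagatgaccca
Zgpat, chr2:181365661-181365690, plus strand: gctgggtcgggatGGACgaggacaacctag
Pdgfd, chr9:6168838-6168867, plus strand: ttagctgctatccGGACacttttgcgactc
Cdc42ep3, chr17:79335554-79335583, minus strand: ttcttatgaaaaaGGACgttttggaagtgt
Lats2, chr14:57734209-57734238, minus strand: gtaaaaggaaactGGACtaacaatgaggcc
Rcor3, chr1:192137882-192137911, minus strand: cccctcctctaccATGcccggcatgatgga

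Aged hearts had more start codon peaks than young hearts, and the groups did not overlap. There were 261, 201 and 160 start codon peaks in young hearts 1, 2 and 3 and 403, 408 and 329 in aged hearts 1, 2 and 3. The mean rose from 207 ± 50.8 to 380.0 ± 44.2 (SD, n = 3 each), a difference of 173 (two-sided exact permutation test, p = 0.1, the smallest value that 3 against 3 hearts allow). After adjustment over the 9 comparisons of age, p was 0.225 for each comparison at this smallest value. All lists were longer in aged hearts, with 6033 to 7487 placed peaks against 3442 to 5373.

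Start codon peaks also took a larger share of the list in aged hearts. They were 4.86%, 4.68% and 4.65% of placed peaks in the young hearts and 5.46%, 5.45% and 5.45% in the aged hearts (4.73% ± 0.113 against 5.45% ± 0.00308, SD, n = 3 each, exact permutation p = 0.1). Among the genes with a placed peak, 7.83%, 6.93% and 6.97% had a start codon peak in the young hearts and 9.88%, 9.57% and 9.07% in the aged hearts. Both shares thus separated the ages, by 0.72 and 2.26 percentage points.

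The difference in number was smaller between lists of equal length. With each heart limited to its 4114 peaks of lowest p-value, as many as the shortest list held, there were 172, 154 and 160 start codon peaks in young hearts and 187, 177 and 177 in aged hearts. The share of placed peaks at start codons was then 4.97%, 4.58% and 4.65% against 5.43%, 5.28% and 5.10%, still without overlap. The share also depended on which genes carried peaks. In the 1332 genes with a placed peak in all 6 hearts, an alternative added after seeing the data, 3.75%, 3.61% and 3.90% of the peaks of young hearts lay at start codons against 3.54%, 3.53% and 3.62% in aged hearts, the opposite direction (-0.19 points, exact permutation p = 0.2). The share of these genes with a start codon peak was 8.26%, 6.68% and 6.91% in young hearts and 9.46%, 9.38% and 8.41% in aged hearts. Unlike the share of peaks, this share of genes takes no account of the number of peaks per gene.

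The midpoints lay mostly inside the coding sequence. Of the 1762 start codon peaks, 1235 had the midpoint downstream of the first base of the start codon and 519 upstream. The median midpoint was 39, 33 and 45 nt downstream in the young hearts and 39, 35.5 and 47 nt in the aged hearts, and the ages overlapped (difference 1.5 nt, exact permutation p = 0.8). The share with a downstream midpoint was 68.6%, 67.7% and 68.1% in young hearts and 69.0%, 69.1% and 76.3% in aged hearts. These shares did not overlap (p = 0.1, exact permutation), but aged heart 3 alone stood more than 1 percentage point above the young hearts, and the difference of 3.34 points was 0.93 points without it. It was 0.58 points with any coding transcript (p = 0.8), and the ages overlapped with windows of 50 nt (p = 0.5) and 200 nt (p = 0.4), at p-values at or under 1e-05 (p = 0.5), with equal numbers of best peaks (p = 0.3) and for peaks that hold the start codon (p = 0.2, all exact permutation).

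Placed peaks grew denser through the window from its upstream to its downstream edge in every heart. Between 100 and 51 nt upstream of the start codon lay 0.552% to 0.670% of placed peaks in young hearts and 0.530% to 0.654% in aged hearts. From 50 to 99 nt downstream there were 1.72% to 2.06% in young hearts and 2.24% to 2.57% in aged hearts. The ages were separated in this bin and from 0 to 49 nt (1.05% to 1.47% against 1.48% to 1.59%), and overlapped in both upstream bins. The exact permutation p was 0.1 in each downstream bin of the window. Beyond the window the ages overlapped from 100 to 149 nt. They were again separated from 150 to 199 nt (2.26% to 2.72% against 2.73% to 3.10%, exact permutation p = 0.1). Just inside the limit, at 91 to 100 nt, lay 199 midpoints, and just outside it, at 101 to 110 nt, lay 175.

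**Figure D1:**
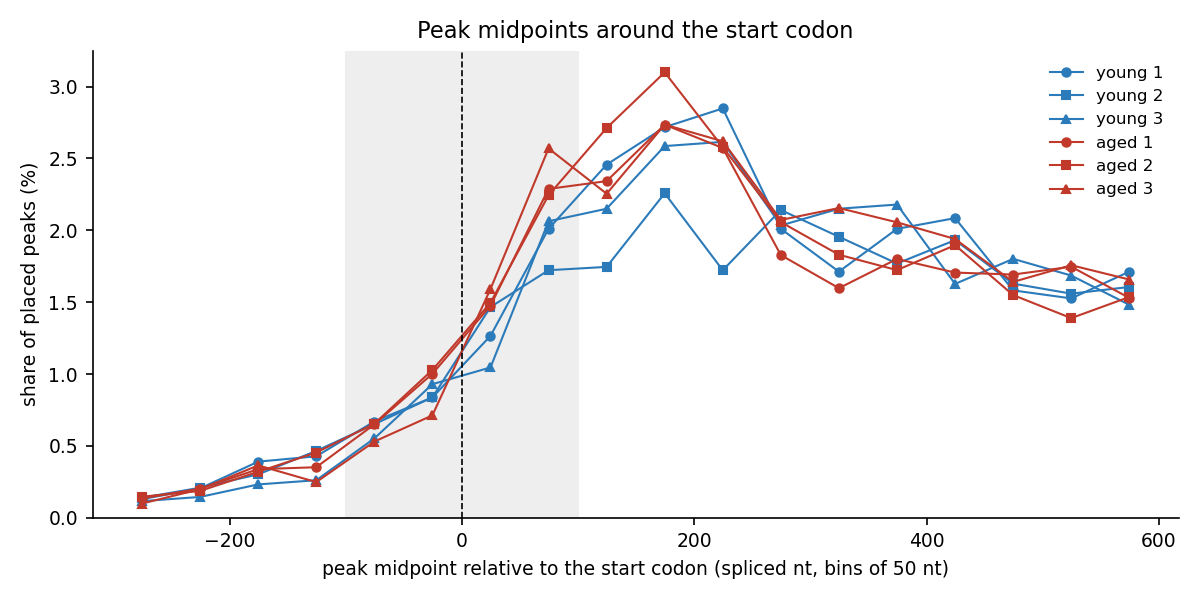
Share of placed peaks in percent by the position of the midpoint relative to the start codon in spliced nt, in bins of 50 nt, with 1 line per heart and the 100 nt window shaded. The lines climb from the upstream to the downstream side, and from 50 to 99 nt the aged hearts (2.24% to 2.57%) lie above the young hearts (1.72% to 2.06%).

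The start codon itself was mostly inside the peak, which the 100 nt rule and the peak lengths largely fix. It was inside 80.1%, 82.1% and 74.4% of them in young hearts and 83.4%, 84.1% and 77.8% in aged hearts, and the ages overlapped. The cap site was taken from the chosen transcript and not measured, and 15 of the 915 genes had a 5′UTR of 0 nt on it. Few start codon peaks reached the first 10 nt of that transcript, where m6Am would lie if it begins at the cap. These were 6.90%, 5.97% and 3.75% in young hearts and 4.22%, 4.90% and 6.69% in aged hearts, and the ages overlapped (p = 0.9, exact permutation). Of the other placed peaks, 0.122% to 0.339% reached it, a contrast that the 100 nt rule largely fixes. The median exonic length was 181, 181 and 180 nt in young hearts and 209, 209.5 and 181 nt in aged hearts, so that aged heart 3 equalled young hearts 1 and 2 (difference 19.2 nt, exact permutation p = 0.3). With equal numbers of best peaks, the lengths were 211, 210 and 180 nt against 241, 241 and 240 nt, without overlap (40.3 nt, exact permutation p = 0.1). This limit leaves longer peaks in every list but that of young heart 3, the shortest, which it does not cut. The exact permutation p was also 0.1 at p-values at or under 1e-05 (29.5 nt) and for peaks that hold the start codon (30 nt). Other placed peaks were longer in aged hearts too, at 209, 181 and 181 nt in young hearts and 210 nt in each aged heart. With equal numbers of best peaks, other placed peaks had 241, 211 and 181 nt against 271, 270 and 269 nt. The greater length in aged hearts was thus not particular to start codon peaks. The midpoints carried a step of about 15 nt. Of 1633 pairs of start codon peaks of the same region and gene, 1619 (99.1%) had midpoints a multiple of 15 nt apart, with a tolerance of 1 nt, so smaller shifts could not be seen.

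Start codon peaks differed from the other placed peaks of the same hearts in the exons they spanned. Only 34.1%, 37.8% and 36.9% lay in 1 exon block in young hearts and 31.3%, 29.7% and 30.4% in aged hearts, against 50.6% to 59.5% of other placed peaks. The difference was -20.3 points ± 2.15 (SD, n = 6 hearts) and had this sign in 6 of 6 hearts (two-sided exact permutation test by sign flips, p = 0.031, the smallest possible, and 0.0625 adjusted over 6 such comparisons). Other coding sequence peaks outside both codon windows lay in 1 block less often than all other peaks, in 34.3% to 44.8%. The gap to these was -6.61 points, also in 6 of 6 hearts. The comparison with coding sequence peaks was added after seeing the data.

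The base composition differed as well, and the m6A motif differed by its form. GGAC was slightly but not significantly denser than in other peaks, whereas the wider consensus DRACH, counted per kb as an alternative, was sparser (-3.88 per kb, exact permutation p = 0.031). Pooled over their bases, the GC content of start codon peaks was 53.6% to 54.4% over the 6 hearts. It was 48.0% to 49.0% in other placed peaks and 49.0% to 50.6% in peaks within 100 nt of the stop codon. GGAC was found 4.41, 5.09 and 4.38 times per kb of start codon peak in young hearts and 4.72, 4.84 and 5.22 times in aged hearts. Other placed peaks held 4.18 to 4.64 per kb, and the difference of 0.39 ± 0.371 per kb was positive in 5 of 6 hearts (exact permutation p = 0.0938). Stop codon peaks held more, 5.19 to 6.14 per kb, and exceeded start codon peaks in 6 of 6 hearts (-0.90 per kb for start codon peaks, exact permutation p = 0.031). At least 1 GGAC was present in 59.4% to 65.7% of start codon peaks and in 57.1% to 61.1% of other placed peaks.

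The motif was about as frequent around start codons with and without a peak. Of the 201 nt windows centred on the start codon that fit whole into their transcript, GGAC on the transcribed strand was in 63.0% of 783 genes with a start codon peak in any heart and in 66.3% of the 3658 genes with placed peaks elsewhere only. By heart it was in 60.7% to 70.3% of the first and in 64.2% to 66.5% of the other genes with a placed peak, and young heart 2 alone had more in the first (70.3% against 64.2%). The median GC content of the windows was 55.0% to 56.2% in genes with a start codon peak and 59.7% to 60.2% in the others. It was thus lower in the first in every heart, whereas the peaks themselves were richer in GC than other placed peaks. Neither difference between windows was tested. In the peaks themselves, 63.6% to 69.1% of GGAC sites lay downstream of the start codon, with a median position of 26 to 40 nt.

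**Figure D2:**
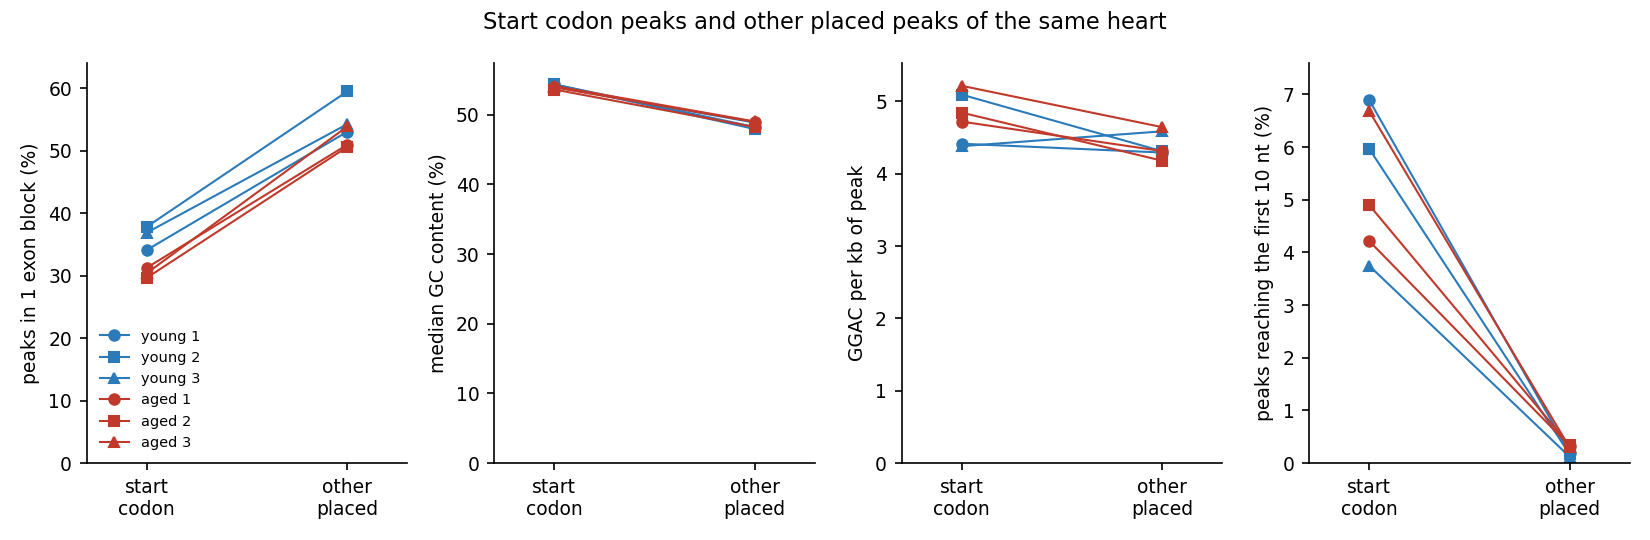
Start codon peaks against other placed peaks of the same heart, with 1 line per heart. The panels give the percent of peaks in 1 exon block, the GC content in percent and GGAC per kb of peak. The last gives the percent of peaks that reach the first 10 nt of the transcript. GC content is pooled over the bases of the peaks, although the axis names it a median. All 6 lines rise in the first panel and fall in those of GC content and of the first 10 nt, and 5 of 6 fall in that of GGAC.

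The genes with start codon peaks differed from the rest in the exon that held the start codon and in 5′UTR length. Their start codon lay in exon 1 in 52.3% and in exon 2 in 36.7% of 915 genes, against 66.4% and 26.2% of the 5105 other genes with a placed peak. These shares were pooled over the hearts and were not tested. The median 5′UTR was 221, 260 and 247 nt in the young hearts and 243, 228 and 213 nt in the aged hearts, and 179 to 193 nt in other genes with a placed peak in the same heart. The difference was 48.1 nt ± 15.6 (SD, n = 6 hearts, exact permutation p = 0.031). A short 5′UTR leaves less room for a midpoint upstream of the start codon, and among genes with a 5′UTR of at least 100 nt, compared after seeing the data, the difference was 5.83 nt (p = 0.469, exact permutation). The exon with the start codon had a median length of 222 to 277 nt against 249 to 260 nt in other genes, with a difference of -7.33 nt (p = 0.313, exact permutation).

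For many genes the start codon peak was the only peak called. Of the genes with a start codon peak, 52.1%, 60.5% and 61.9% had no peak elsewhere, placed or not, in the young hearts. In the aged hearts these were 46.8%, 48.0% and 49.5%. A stop codon peak accompanied it in 3.13% to 7.21% of these genes, against 8.35% to 9.39% of other genes with a placed peak (-3.57 points, exact permutation p = 0.031). The sign turned when only genes with a further placed peak outside the start codon window were counted, a comparison added after seeing the data: 8.62% to 16.2% of them had a stop codon peak (3.59 points, p = 0.125, exact permutation). Start codon peaks ranked in the middle of their lists by the deposited p-value, at a median percentile of 47.1 to 57.3, where 0 is the lowest p-value. Other placed peaks were at 48.4 to 49.3.

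More than 50% of the genes with a start codon peak had it in a single heart. Of the 915 genes, 511 (55.8%) had one in only 1 heart, 475 in aged hearts only, 157 in young hearts only and 283 in both ages. In at least 2 hearts of an age there were 274 genes for aged and 133 for young hearts, and 91 genes were in both counts. For comparison, of the 6020 genes with a placed peak anywhere, of which many have several, 24.7% had it in 1 heart, 27.4% in aged hearts only and 8.70% in young hearts only. By region, which counts 1 place and any peak there, 37.6% of start codon regions and 42.9% of all regions were in 1 heart. In aged hearts only were 40.5% of start codon regions and 41.7% of all regions, and in young hearts only 11% and 13.9%. The excess of aged over young was thus also that of regions anywhere. The start codon genes of a young heart recurred in another young heart in 29.7% to 48.1% of cases and in an aged heart in 45.5% to 53.7%. Those of an aged heart recurred in another aged heart in 37.3% to 48.0% and in a young heart in 19.2% to 36.7%. The longer lists of aged hearts thus held more of the young genes than the other young lists mostly did.

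A start codon peak was called in all 6 hearts in 33 regions. The 10 whose weakest peak ranked best are described here. Actn2, Lpl and Txlnb led, each with a deposited p-value of 0 in all 6 hearts. Actn2 encodes α-actinin-2, which crosslinks actin at the Z-disc, Lpl encodes lipoprotein lipase, which frees fatty acids from circulating triglycerides, and Txlnb encodes a muscle taxilin. The region of Actn2 lay in exon 1 at chr13:12340431-12340730, and its midpoints were -65, -51 and -80 nt in young hearts and -65, -36 and -80 nt in aged hearts. The region of Lpl was at chr8:68880581-68881030 in exon 1, with midpoints of 53, -22 and -22 nt in young hearts and -22 nt in each aged heart. For Txlnb (chr10:17796256-17799281, over exons 1 and 2 of the transcript) the midpoints were 31 nt in each young heart and 61, 46 and 1 nt in aged hearts. Young and aged midpoints overlapped in all 3 genes.

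Myl3, the essential myosin light chain of ventricles, and Actc1, cardiac α-actin, followed. The deposited p-values of Myl3 were 0 in the 3 young hearts and in aged heart 2, and 1e-168 and 1e-248 in aged hearts 1 and 3. Its midpoints were 78, 64 and 64 nt in young hearts and 78 nt in each aged heart. Those of Actc1 were 15, 0 and -45 nt in young hearts and 0, 15 and -45 nt in aged hearts, the same 3 positions. None of the start codon peaks of Actn2, Myl3 and Actc1 held GGAC, and 1 of 6 did in Lpl. GGAC was thus missing from nearly all peaks of 4 of the 5 best-ranked regions.

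The other 5 of the 10 held GGAC in each of their 6 start codon peaks. They were in Hnrnpk, which encodes an RNA-binding protein, Dcaf11, a substrate receptor of a cullin ubiquitin ligase, Nedd4, a ubiquitin ligase, Fyco1, an adaptor that moves autophagosomes along microtubules, and Eif2s2, the β subunit of the initiation factor eIF2. The deposited p-values of Hnrnpk were 1e-166, 1e-128 and 3.2e-31 in young hearts and 1e-110, 1e-244 and 1e-105 in aged hearts. Nedd4 kept its place most closely, with midpoints of 44, 44 and 29 nt in young hearts and 29, 44 and 44 nt in aged hearts. Dcaf11 varied most of these 5, with 23, -37 and -7 nt in young hearts and 23, -67 and 23 nt in aged hearts.

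Over the 33 regions, the midpoint did not move in one direction with age. The mean aged midpoint minus the mean young midpoint had a median of 0 nt, was within 10 nt in 19 regions and within 30 nt in 28, and ran from -55 nt in Ccdc80 to 70 nt in Zfp691. The median midpoint of the 33 regions was 20, -6 and 9 nt in young hearts and 12, 10 and 13 nt in aged hearts (difference 4.00 nt, exact permutation p = 0.7). All start codon peaks held GGAC in 21 of the regions and none did in 10. Palmd and 4930455H04Rik, both among the 33, lie on opposite strands over the same bases and had equal ranks in their weakest heart, so their peaks may count the same fragments.

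**Figure D3:**
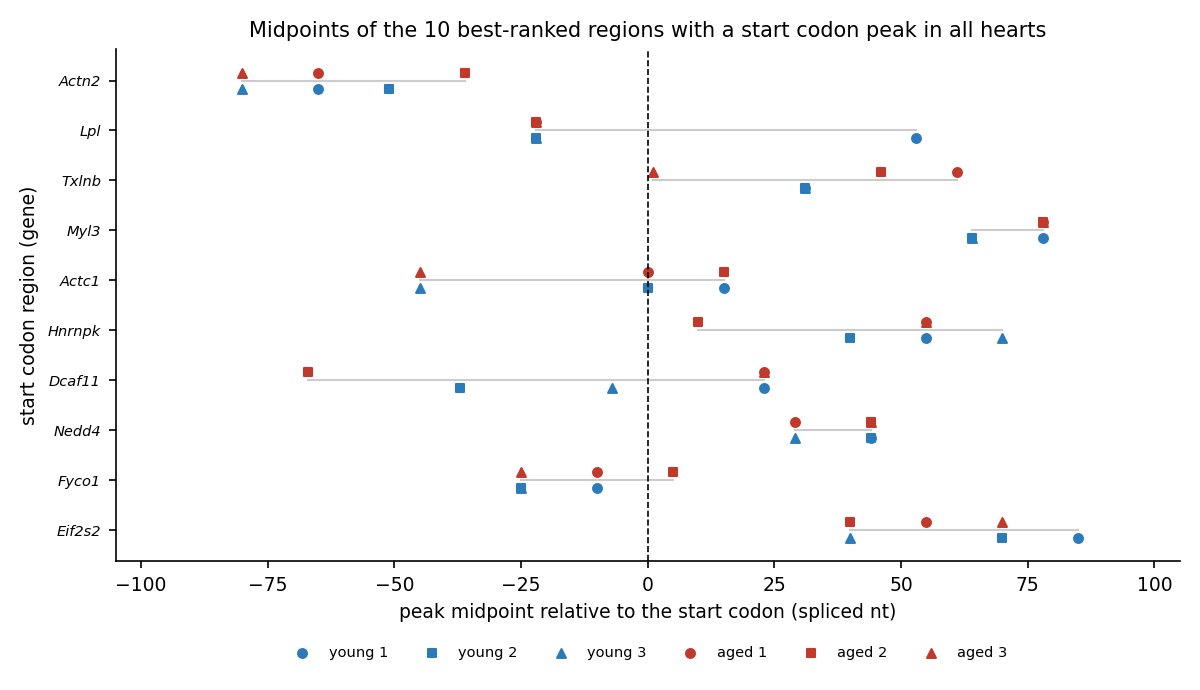
Midpoints relative to the start codon in spliced nt of the 10 best-ranked regions with a start codon peak in all 6 hearts, 1 region per line named by its gene and ordered by the rank of its weakest peak. Blue marks are the 3 young hearts, red marks the 3 aged hearts, and grey lines span all 6. Blue and red marks intermingle, as in Actc1, where both ages have midpoints of 15, 0 and -45 nt.

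All 3 aged hearts but 0 young hearts had a peak in 27 of the 917 start codon regions (2.94%), against 2.68% of all 15699 regions of the series. The reverse was found in 1 start codon region (0.109%), against 0.0446% of all regions. The share of start codon regions that appeared in aged hearts was therefore close to that of peaks anywhere. With the same number of best peaks in each heart, both counts were 4 of 503 start codon regions, against 97 aged and 49 young of 8525 regions anywhere. Leaving out 1 heart, which lets fewer hearts decide, gave 35 to 71 aged regions. There were 71 of 860 start codon regions without young heart 1, against 833 of 14925 regions anywhere. Without young heart 3 there were 35 of 888, against 517 of 15255 anywhere. Without aged hearts 1, 2 and 3 there were 47 of 773, 50 of 781 and 65 of 824. Over all regions those were 739 of 13993, 789 of 13682 and 1143 of 14700. In 12 of the 27 regions the midpoint lay within 100 nt of the start codon in all 3 aged hearts, and in the others it lay farther off in 1 or 2 of them. In 14 of the 27, the gene had no peak elsewhere in any young heart. These regions were not among the strongest. The weakest aged peak was at the 53.0th percentile of its list or later in each, with a median of 79.9, against a median of 34.0 for the weakest peak of the 33 shared regions.

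Among the 15 best-ranked of these aged regions were genes of matrix and protein maturation. Col1a1 encodes the α1 chain of type I collagen, P4ha1 the prolyl hydroxylase subunit that matures collagen, Pdia3 a disulfide isomerase of the endoplasmic reticulum and Pdgfd a platelet-derived growth factor. P4ha1 (chr10:59323475-59342690) had start codon peaks in the 3 aged hearts with midpoints of 46, 75 and 75 nt and deposited p-values of 8.9e-08, 3.4e-05 and 1.6e-11. Col1a1 had p-values of 1e-19, 2.8e-05 and 6.5e-10, but its midpoint was within 100 nt of the start codon in aged heart 3 alone, at 87 nt. Col1a1 had other peaks in 2 young hearts and P4ha1 in 1. Pdgfd had midpoints of 42 and 57 nt in aged hearts 2 and 3, and its gene had no peak in a young heart. Of 8 fibroblast marker genes, 3, 3 and 1 had any peak in young hearts and 4, 3 and 4 in aged hearts. Of all 7088 genes with a peak, 38.0% to 54.8% had one in a young heart and 59.7% to 71.9% in an aged heart. The part of the fibroblast genes in these regions was not tested.

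Others belonged to signalling and ubiquitin genes. Lnx1 encodes a ubiquitin ligase that targets Numb, and Numb encodes an inhibitor of Notch signalling. Lnx1 had deposited p-values of 2e-13, 5.8e-09 and 9.5e-07 in the aged hearts, the best-ranked of the set, with midpoints of 4 and 63 nt in aged hearts 1 and 2. Numb had p-values of 4e-27, 6.6e-05 and 6.3e-12 and midpoints of 68, 82 and 82 nt. The chosen transcripts of Lnx1 and Numb begin at the start codon, with a 5′UTR of 0 nt, so no upstream peak could be placed on them. The peaks of Numb also shared bases with peaks of Gm46367. Cdc42ep3, an effector of the GTPase CDC42, had weak peaks (p-values 0.0014, 0.00041 and 0.0002) at -99, -55 and -10 nt. Lats2, a kinase of the Hippo pathway, shared its peaks with the overlapping gene model Gm49361, with p-values of 0.0015, 9.3e-09 and 2.1e-05, and its gene had other peaks in all 3 young hearts.

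The rest of the 15 were in genes of mitochondria, transcription and mRNA decay. Mrpl46 and Chchd1 encode proteins of the mitochondrial ribosome, and Hadhb the β subunit of the trifunctional protein of fatty acid oxidation. Chchd1 had midpoints of 79, 79 and 64 nt in the aged hearts, with p-values of 9.1e-06, 0.0003 and 7.9e-18. Mrpl46 and Hadhb had a midpoint in the window in 1 aged heart each, at 100 and 93 nt. Supt5 encodes a transcription elongation factor and had 2 peaks with the midpoint at 91 nt that did not reach the start codon. Zgpat and Zfp706 encode zinc finger proteins and Cnot1 the scaffold of the CCR4-NOT deadenylase. Zgpat had midpoints of 47 and 62 nt in aged hearts 2 and 3, and Cnot1 and Zfp706 had 1 midpoint each, at -5 and 53 nt.

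The 1 region with a peak in 3 young and 0 aged hearts was that of Rcor3, a corepressor of the CoREST family, at chr1:192137655-192137942. Its deposited p-values were 0.011, 0.0042 and 0.0001 in young hearts 1, 2 and 3, at 94.4% of the list in the weakest. Its midpoints were within 61 to 91 nt downstream, and none of its peaks held GGAC.

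By gene list, start codon peaks were more common in genes of the contractile and excitable heart than over all genes. A start codon peak in any heart was found in 12 of 35 genes with a placed peak of the sarcomere and cytoskeleton (34.3%), in 7 of 23 of calcium handling and ion channels (30.4%) and in 8 of 30 of mitochondrial energy metabolism (26.7%), against 915 of 6020 over all genes (15.2%). The lists were not tested and their genes may differ from others in expression, which was not analysed here. Myom1, a protein of the M-band, had a start codon peak in 2 young and 3 aged hearts, with a median midpoint of 81 nt. Hearts count in these lists only with a midpoint in the window, and the region of Myom1 had peaks in 3 young and 3 aged hearts. Casq2, the calcium buffer of the sarcoplasmic reticulum, had it in 1 young and 3 aged hearts at 14 nt, without GGAC in any of its 4 peaks.

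In the metabolic list, Pdk4, the kinase that shuts off pyruvate dehydrogenase, had it in 2 young and 3 aged hearts at a median of 32 nt. Ogdh, a subunit of the oxoglutarate dehydrogenase complex, had it in 1 young and 3 aged hearts at 82 nt, and Acadl, an acyl-CoA dehydrogenase, in 1 young and 2 aged hearts at 93 nt. Cox6a2, the muscle form of a cytochrome oxidase subunit, had it in 2 young and 0 aged hearts at 12 nt.

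Matrix and integrin genes had a start codon peak in 9 of 37 (24.3%), and 8 of these 9 were in aged hearts only, against 475 of 915 over all genes. Only Itgb1, the β1 integrin, was also in a young heart, with 1 young and 2 aged hearts. Efemp1, a fibulin of the matrix, had start codon peaks in aged hearts 1 and 2, the nearest midpoint being 20 nt, and 2 of 2 held GGAC. The remaining 7 each had a midpoint in the window in 1 aged heart. The count goes by midpoints, and a region could be called in more hearts. That of Timp3 had peaks in 3 young and 3 aged hearts, and that of Col1a1 in 0 young and 3 aged hearts. Gfpt1, the first enzyme of the hexosamine pathway, had 1 start codon peak, in aged heart 2 at -18 nt. Mettl14 had no peak at all, and the 4 peaks of Fto could not be placed on its chosen transcript.

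Transcription factors had 11 of 44 (25.0%) and ribosomal proteins 7 of 27 (25.9%). Klf7, a Krüppel-like factor, had it in 2 young and 1 aged hearts at a median of -77 nt. Nr1d1, the clock repressor REV-ERBα, had it in 2 young and 0 aged hearts at -77 nt. The region of Nr1d1 was nevertheless called in 3 young and 3 aged hearts, and only the midpoint rule left the aged hearts out. Mef2c, a cardiac transcription factor, was in 1 young and 2 aged hearts at -67 nt, and the immediate early gene Ier2 in 0 young and 2 aged hearts at 93 nt. Rps7, of the small ribosomal subunit, was in 1 young and 2 aged hearts at 71 nt.

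The shares of the other lists were nearer to that of all genes. Translation factors had 8 of 43 (18.6%), with Eif2s2 and Eif3k in all 6 hearts and Eif3a, the largest subunit of eIF3, in 2 young and 1 aged hearts. Splicing factors had 7 of 48 (14.6%), with Hnrnpk in all 6 hearts, Rbm5 in 2 young and 3 aged, Rbfox1 in 2 of each and Srsf5 in 0 young and 2 aged. Chromatin modifying enzymes had 8 of 63 (12.7%). Among these, Kdm5c, a histone demethylase, was in 2 hearts of each age at a median of 89 nt. Kat6a, an acetyltransferase, and Eed, a subunit of the Polycomb complex PRC2, were in 2 young and 0 aged hearts. Insulin and PI3K-Akt signalling had 4 of 31 (12.9%), led by the adaptor Grb2 in 3 young and 2 aged hearts. Of 14 m6A regulators with a placed peak, 1 (7.14%) had a start codon peak, Zc3h13 in 1 aged heart.

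**Figure D4:**
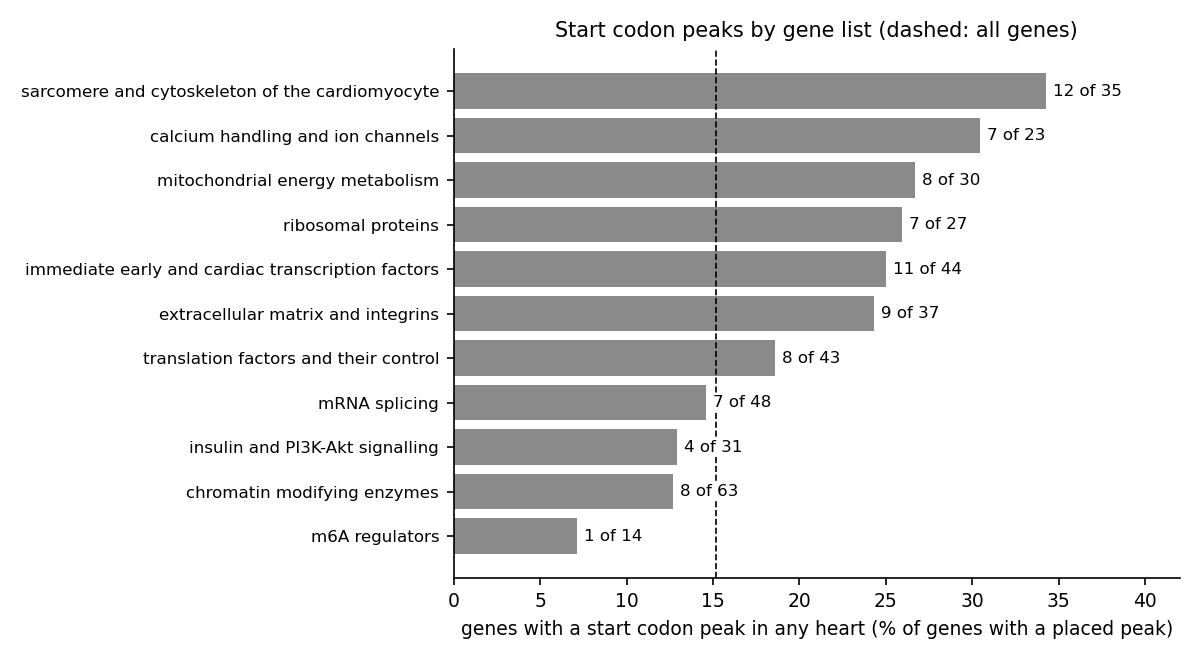
Percent of genes with a placed peak that had a start codon peak in any of the 6 hearts, by gene list, with the counts beside the bars. The dashed line is the 15.2% of all genes. The list of the sarcomere and cytoskeleton is highest at 34.3% and that of m6A regulators lowest at 7.14%.

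The hearts could be checked against markers only through the genes with peaks. All 8 cardiomyocyte markers had a peak in some heart, 4 of them in all 6 hearts, and of these Actc1 was among the start codon regions seen in all hearts. By heart, 5, 4 and 6 of the cardiomyocyte markers had a peak in young hearts and 6, 7 and 5 in aged hearts. The counts were 2, 2 and 2 against 3, 3 and 5 of 8 macrophage and leukocyte markers, 5, 6 and 5 against 7, 7 and 6 of 8 endothelial markers, 7, 7 and 4 against 6, 6 and 6 of 8 smooth muscle and pericyte markers, and 2 in every heart of 8 adipocyte markers. Genes with a peak were more numerous in aged hearts in general, as given above. Start codon peaks that shared bases with a peak of another gene in the same heart numbered 101 (5.73%), in 59 cases on the opposite strand.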

How the data were processed

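Per the labels, 12 MeRIP-seq libraries of hearts were made, an immunoprecipitate and an input for each of 3 young and 3 aged mice, from RNA fragments of 100 to 200 nt. The authors trimmed reads with cutadapt (2.5), aligned them to GRCm38 with HISAT2 (2.1.0), ran exomePeak on each heart with its input at a p-value cutoff of 0.05, and searched motifs with HOMER (4.10.4). The deposited p-value of each peak is their only measurement. It is not adjusted, was listed as 0 for 23 start codon peaks, and served here only for ranks and limits inside 1 list. No counts or library totals were used, so precision rests on the number of hearts and on lists of 4114 to 9367 peaks. The inputs enter only through the peak calls.

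From these lists, the midpoint of each peak's exon blocks was placed on GENCODE M21 transcripts. Peaks of genes without a coding transcript (1824) or with the midpoint off the chosen transcript (5631) were left out, as were peaks whose transcript lacks an annotated start, 11 of them within 100 nt of its first coding base. Of the start codon peaks, 1757 had ATG as the start codon. Peaks sharing at least 1 exonic base on a strand were joined into regions. Ages were compared with exact permutation tests over the 20 assignments of 3 and 3 hearts, and start codon peaks with other peaks of the same heart by sign flips over 6 hearts, both two-sided, with Benjamini-Hochberg adjustment. Sequences were read from the GRCm38 genome. Python 3 with pandas, numpy, scipy and pysam was used, and placement and joining recovered 3000 of 3000 simulated peaks and 500 of 500 simulated regions.

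The genes named were the 10 regions in all 6 hearts and the up to 15 regions in all hearts of 1 age and 0 of the other with the best-ranked weakest peak, up to 4 genes per list with a start codon peak in at least 2 hearts of an age, and Efemp1, Gfpt1, Mettl14 and Fto. Some genes that this rule picks are not reported here. Members and lists were chosen with earlier results of these data known. Hearts with the same replicate number were not taken as pairs, since the correlations of their deviations from the age means over start codon regions were between -0.022 and 0.0033. The alternatives tried were windows of 50 and 200 nt, peaks that hold the start codon, p-values at or under 1e-05, equal numbers of best peaks, any coding transcript, other motif measures and joining rules, and leaving out each heart.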

Additional observations from a re-analysis of the deposited data

How the results depend on the processing

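The higher number of start codon peaks and the higher share of genes with one in aged hearts kept their direction under every alternative run. So did the share of placed peaks, except in genes with a placed peak in all 6 hearts (-0.19 points). The ages differed in opposite directions for the median midpoint with any coding transcript (-2.50 nt) and without single hearts (young heart 2 or aged heart 3, -1.50 and -1.75 nt, range over hearts left out -1.75 to 4.50 nt), for the midpoint over shared regions with equal numbers of best peaks (-2.33 nt) and without single hearts (-5.50 to 9.83 nt), and for the share holding the start codon within 50 nt (-1.05 points). The share reaching the transcript start turned positive within 50 nt (0.0028 points) and 200 nt (0.58), for peaks holding the start codon (0.094), at p-values at or under 1e-05 (0.23), with equal numbers of best peaks (1.75), with any coding transcript (0.71), and ranged over -1.16 to 0.41 points without single hearts.

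Regions in 3 aged and 0 young hearts numbered 12 of 459 within 50 nt and 53 of 1738 within 200 nt. With any coding transcript they were 42 of 1277. Over all regions the count was 421 of 15699 in each of these settings. With equal numbers of best peaks they were 4 of 503, against 97 of 8525 anywhere. With at least 2 aged hearts and 0 young they were 116 of 917, against 1829 of 15699 anywhere. Without single hearts, where fewer hearts had to agree, they numbered 35 to 71. There were 71 of 860 without young heart 1, against 833 of 14925 anywhere. Without aged hearts 1, 2 and 3 there were 47 of 773, 50 of 781 and 65 of 824. Over all regions those were 739 of 13993, 789 of 13682 and 1143 of 14700. By start codon peak of the gene, 17 genes had one in 3 aged and 0 young hearts. Regions in 3 young and 0 aged hearts numbered 0 of 459 within 50 nt, against 7 of 15699 anywhere. At p-values at or under 1e-05 they were 0 of 522, against 2 of 8593 anywhere. With equal numbers of best peaks they were 4 of 503, against 49 of 8525. With at least 2 young hearts and 0 aged they were 11 of 917, against 174 of 15699. Without single hearts they numbered 1 to 9. Without young hearts 1, 2 and 3 there were 2 of 860, 9 of 861 and 2 of 888. Over all regions those were 40 of 14925, 65 of 14908 and 83 of 15255.

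GGAC per kb against other peaks passed the threshold within 50 nt (0.28 per kb, p = 0.031, exact permutation) and as the share with GGAC in the central 100 nt (5.79 points). It turned negative for the wider DRACH motif (-3.88 per kb) and against stop codon peaks (-0.90 per kb). The start exon was shorter within 200 nt (-27.9 nt) and with any coding transcript (-48.8 nt), both past the threshold, and longer for peaks holding the start codon (11.8 nt). The rank of the deposited p-value was better within 200 nt (-1.37 percentile points) and for peaks holding the start codon (-10.4). The 5′UTR difference fell to 5.83 nt among 5′UTRs of at least 100 nt, and that in stop codon peaks turned to 3.59 points among genes with a further peak. Without single hearts, the smallest possible p is 0.0625, and the values ranged from -20.9 to -19.7 points for 1 exon block, 44.2 to 52.3 nt for the 5′UTR and -3.91 to -3.12 points for stop codon peaks. With a replicate block over same-numbered hearts, the 9 age differences were equal in size (172.7 start codon peaks, 0.72 points of placed peaks) with p between 0.25, the smallest possible, and 1, and no call changed. The causes of these changes were not tested.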
